A study of Mus musculus with 12 samples.

Results

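Interferon-stimulated genes are the set of antiviral and immune genes that cells switch on when interferons bind their receptors. The 34 genes described here are a list of such symbols, each taken as the transcript cluster of the deposited array table annotated to that symbol. All 34 were measured, each by 1 cluster, among 19505 named genes. Expression was measured on 12 arrays of mouse white matter cells selected with beads against GLAST, the astrocyte glutamate transporter encoded by Slc1a3. All mice were C57BL/6 and started the diet, a powder with 0.2% (w/w) cuprizone, at 8 to 12 weeks of age. Cuprizone binds copper, and feeding it to mice leads to loss of oligodendrocytes and of myelin. The 4 groups, each of 3 arrays from separate biological replicates, were wild-type mice after 0, 3 and 12 weeks of the diet and GnT-IX-deficient mice after 12 weeks. GnT-IX is the brain glycosyltransferase encoded by Mgat5b. The labels used here do not give how the deficient line was made or how many mice made up a replicate, so the spread between replicates may be in part technical. Weeks of diet went with age, and no untreated group of the later ages and no untreated GnT-IX-deficient group was analysed here, so diet and age cannot be told apart.

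Interferons of type I and type III signal through the kinases JAK1 and TYK2 to a complex that holds STAT2 and IRF9 and binds the interferon-stimulated response element in gene promoters. Type II interferon acts through another promoter element, the gamma-activated site. In the brain, microglia, astrocytes and endothelial cells all carry interferon receptors, and interferon-stimulated genes are known to rise in glia in demyelinating, infected and ageing tissue.

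Letters of these elements were looked for in the promoters of the genes on the list. RefSeq promoter windows on GRCm38.p6, from 250 bases before to 50 bases after a gene's start, were matched for 26 of the 34 genes. The other 8 had no window and were not searched, among them Usp18, which is called below. Both strands were searched for GAAA followed by any 2 bases and GAAA again, the core of the response element, which reads TTTC, any 2 bases and TTTC on the other strand, and for TTCNNNGAA, the core of the gamma-activated site, which reads the same on both. The response element core was found for 13 of these 26 genes (50%), against 3.94% of the 15691 measured genes with a window and 3.44% of all 32851 windows. The gamma-activated site core was found for 7 of the 26 (26.9%), against 9.02% of measured genes and 8.30% of windows. Stretches are given for the called genes Ifit1 and Ifitm2, for Bst2, which had the largest difference at 3 weeks, and for Isg15, which names the family. Also given are Rsad2, whose 3-week values lay below the 0-week ones without a call, and Irf1, which has only the gamma-activated site core. Capitals mark the response element letters, or in Irf1 those of the gamma-activated site, and each stretch is written 5′ to 3′ on the gene's strand.
Ifit1 (chr19:34640771-34640827, plus strand): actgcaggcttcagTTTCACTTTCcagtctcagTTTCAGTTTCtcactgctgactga
Ifitm2 (chr7:140955984-140956021, minus strand): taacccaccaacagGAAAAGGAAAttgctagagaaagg
Bst2 (chr8:71537573-71537616, minus strand): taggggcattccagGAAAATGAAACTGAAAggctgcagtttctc
Isg15 (chr4:156200861-156200910, minus strand): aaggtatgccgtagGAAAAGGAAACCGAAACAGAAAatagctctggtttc
Rsad2 (chr12:26456549-26456586, minus strand): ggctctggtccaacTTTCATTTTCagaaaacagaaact
Irf1 (chr11:53769910-53769946, plus strand): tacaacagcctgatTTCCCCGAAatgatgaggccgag
The 2 matches of Ifit1 begin 104 and 85 bases before the start, the 2 overlapping matches of Bst2 at 130 and 124, and the 3 overlapping matches of Isg15 at 78, 72 and 66. In Bst2 and in Ifitm3 a gamma-activated site match overlaps a response element match by its last bases. A match is a run of letters and not a measured binding site.

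The measured differences of the genes with and without the response element letters overlapped. At 12 against 0 weeks in wild-type mice the 13 genes with the core had a median log2 difference of 0.51, from 0.01 (Stat2) to 1.48 (Bst2). The 13 with a window but no core had a median of 0.50, from -0.12 (Oasl1) to 1.28 (Psmb9). At 3 weeks the genes with the core had a median of 0.41, from -0.42 (Rsad2) to 2.16 (Bst2). Those without it had a median of 0.50 over a narrower range, from 0.0 (Psmb10) to 1.25 (Irf7).

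Several facts of the arrays bear on these genes. Mgat5b was at 3.70, 4.19 and 4.06 (log2 signal) in the GnT-IX-deficient arrays and between 5.57 and 6.49 in the 9 wild-type arrays. Array medians lay between 5.38 and 5.45 and lower quartiles between 3.73 and 3.85, and Pearson's r between arrays of the same group, across genes, was 0.974 to 0.985. Resting astrocyte markers averaged 8.81 to 10.18 per array and mature oligodendrocyte markers 8.64 to 10.03, so the selected cells carried both signals. The 10 astrocyte markers had a median difference of -1.21 at 3 weeks (8 called lower), -0.60 at 12 weeks (1 called lower) and -0.96 in GnT-IX-deficient arrays (6 called lower), all against 0 weeks. The 9 oligodendrocyte markers had medians of -0.13, -0.89 (1 called lower) and -0.61. The 17 immediate early and dissociation genes, a sign of sample handling among other things, had medians of 0.78, 0.98 and 0.51 in the same comparisons, with 5, 7 and 3 called higher and none lower. Over all genes 1.63%, 0.523% and 1.70% were called lower in these comparisons, and 1.61%, 2.11% and 2.41% higher. The part of the shifts of these lists in the differences of the interferon-stimulated genes was not tested. The 15 microglia and macrophage markers averaged 5.13 to 5.71 at 0 weeks, 6.52 to 8.82 at 3 weeks, 7.87 to 8.98 at 12 weeks and 7.23 to 8.27 in GnT-IX-deficient arrays. Their median differences against 0 weeks were 2.28, 2.99 and 2.24, with 10, 13 and 12 of 15 called higher and none lower. T and NK cell markers averaged 3.18 to 3.84 in every array, with Cd3e between 2.72 and 3.55, though Klrb1c was called 1.03 higher at 12 than at 0 weeks. Choroid plexus markers averaged 4.83 to 6.33 in wild-type arrays and 8.59, 7.49 and 5.92 in the GnT-IX-deficient arrays. In such bulk samples a change in the share of a cell type and a change in RNA per cell cannot be told apart.

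Many of the 34 genes gave dim signals. Oasl1 and Mx1 lay below the lower quartile of their array in 12 of 12 arrays, 11 genes lay below the array median in all 12, and 11 lay above it in all 12. The sizes of differences of the dim genes are uncertain, since array summaries compress them. The 11 genes always above the median were Irf1, Irf9, Stat2, Ifi27, Ifi35, Ifitm2, Ifitm3, Xaf1, Cmpk2, Psmb10 and Samhd1.

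After 3 weeks of the diet, 2 of the 34 genes were higher in wild-type cells. Ifit1, which binds foreign RNA and blocks its translation, rose 2.64-fold, and Usp18, the protease that removes the ubiquitin-like protein ISG15 and restrains interferon receptor signalling, rose 3.28-fold. They were the genes that passed the threshold (limma, adjusted p under 0.05), against 1.61% of all genes called higher, and none of the 34 was called lower, against 1.63%. The median log2 difference of the list was 0.44, with 32 of 34 at or above 0 (Psmb10 at 0). Over all genes the median was -0.017, with 47.8% above 0. For 14 of the 34 genes the 3 values at 3 weeks all lay above the 3 at 0 weeks, against 10.8% of all genes. Rsad2 was the 1 gene of the list whose values all lay below, against 10.5% of all genes.

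The second comparison set wild-type cells at 12 weeks against 0 weeks. Ifit1 and Usp18 were again higher, by 2.21-fold and 2.98-fold, and Ifitm2, a membrane protein that hinders virus entry, rose 1.73-fold. These 3 of 34 genes passed, against 2.11% of all genes called higher, and none was called lower, against 0.523%. The list median was 0.50, with 33 of 34 above 0, against -0.013 and 48.2% over all genes. The groups did not overlap, with 12 weeks higher, for 19 of the 34 genes, against 10.8% of all genes, and with 12 weeks lower for none, against 9.95%. With the mean of the endothelial markers as a covariate none of the 3 calls was kept. Ifit1 was then at 0.76 (adjusted p = 0.668), Usp18 at 1.39 (adjusted p = 0.546) and Ifitm2 at 0.59 (adjusted p = 0.640). In that fit 0.00513% of all genes were called, against 2.64% without the covariate, so the loss of calls was not particular to these 3 genes. Of the 10 endothelial markers 4 were called higher at 12 weeks. The 3-week and 12-week comparisons share the same 0-week arrays, so neither supports the other.

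In the third comparison, 12 against 3 weeks in wild-type cells, none of the 34 genes passed, where 0.0820% of all genes did. At an unadjusted p under 0.05 (limma), 4 of the 34 were higher and 1 lower, against 5.69% and 5.70% of all genes. Ifitm2, Psmb10 and Rsad2 had all 3 values at 12 weeks above those at 3 weeks (7.83% of all genes), and Trim25 and Xaf1 had all 3 below (8.10%). The list median was 0.02, with 17 of 34 above 0, and without replicate 1 of the 3-week arrays it was 0.22, with 26 of 34 above 0. Its sign also turned without replicate 2 or 3 at 3 weeks (-0.03 and -0.06) or replicate 2 at 12 weeks (-0.05).

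The fourth comparison set GnT-IX-deficient against wild-type cells at 12 weeks. Without an untreated GnT-IX-deficient group, a difference present before the diet cannot be told apart from one in the response to it. None of the 34 genes passed, where 0.0256% of all genes did, and at an unadjusted p under 0.05 (limma) none was higher and 2 were lower (Oasl1 and Samhd1), against 3.65% and 3.34% of all genes. The list median was -0.15, with 9 of 34 above 0, against -0.013 and 47.6% over all genes. Without wild-type replicate 2 the median was -0.03 with 15 of 34 above 0, and with the microglial covariate it was 0. Differences ran from -0.68 (SE 0.38) for Irf7 to 0.34 (SE 0.16) for Ifi27. Ifi27, which encodes a membrane protein of mitochondria, had all 3 GnT-IX-deficient values above the wild-type ones (5.27% of all genes), and Ifit2 and Samhd1 all 3 below (5.57%). Microglial markers averaged 7.72 ± 0.52 (SD, n = 3) in these arrays against 8.32 ± 0.58 (SD, n = 3) in wild-type arrays at 12 weeks, and 15 of 15 had lower means, though none passed. Choroid plexus markers had higher means for 9 of 9 genes in the GnT-IX-deficient arrays, none called, and with their mean as a covariate the list median was -0.11 with 14 of 34 above 0.

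GnT-IX-deficient cells at 12 weeks were also set against wild-type cells at 0 weeks, a contrast in which genotype, diet and age differ at once. Ifit1, Usp18 and Ifitm2 were higher, by 2.39-fold, 2.81-fold and 1.85-fold, against 2.41% of all genes called higher, and none was called lower, against 1.70%. In the same contrast choroid plexus markers had a median of 2.27 (3 of 9 called higher) and ependymal markers of 1.00 (3 of 9 called higher). With the choroid plexus mean as a covariate none of the 3 calls was kept, with Ifit1 at 1.24 (adjusted p = 0.160), Usp18 at 1.47 (adjusted p = 0.237) and Ifitm2 at 0.67 (adjusted p = 0.254). With the endothelial mean they were at 0.90, 1.32 and 0.70 (adjusted p = 0.426, 0.449 and 0.404). Of all genes 0.385% were called with the choroid plexus mean and 0.0359% with the endothelial mean, against 4.11% without a covariate. The loss of calls was thus not particular to these 3 genes. The list median was 0.34, with 28 of 34 above 0. The groups did not overlap, GnT-IX-deficient higher, for 13 of the 34 genes, against 12.0% of all genes, and Oasl1 was the 1 gene with all 3 values below, against 13.1%.

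**Figure D1:**
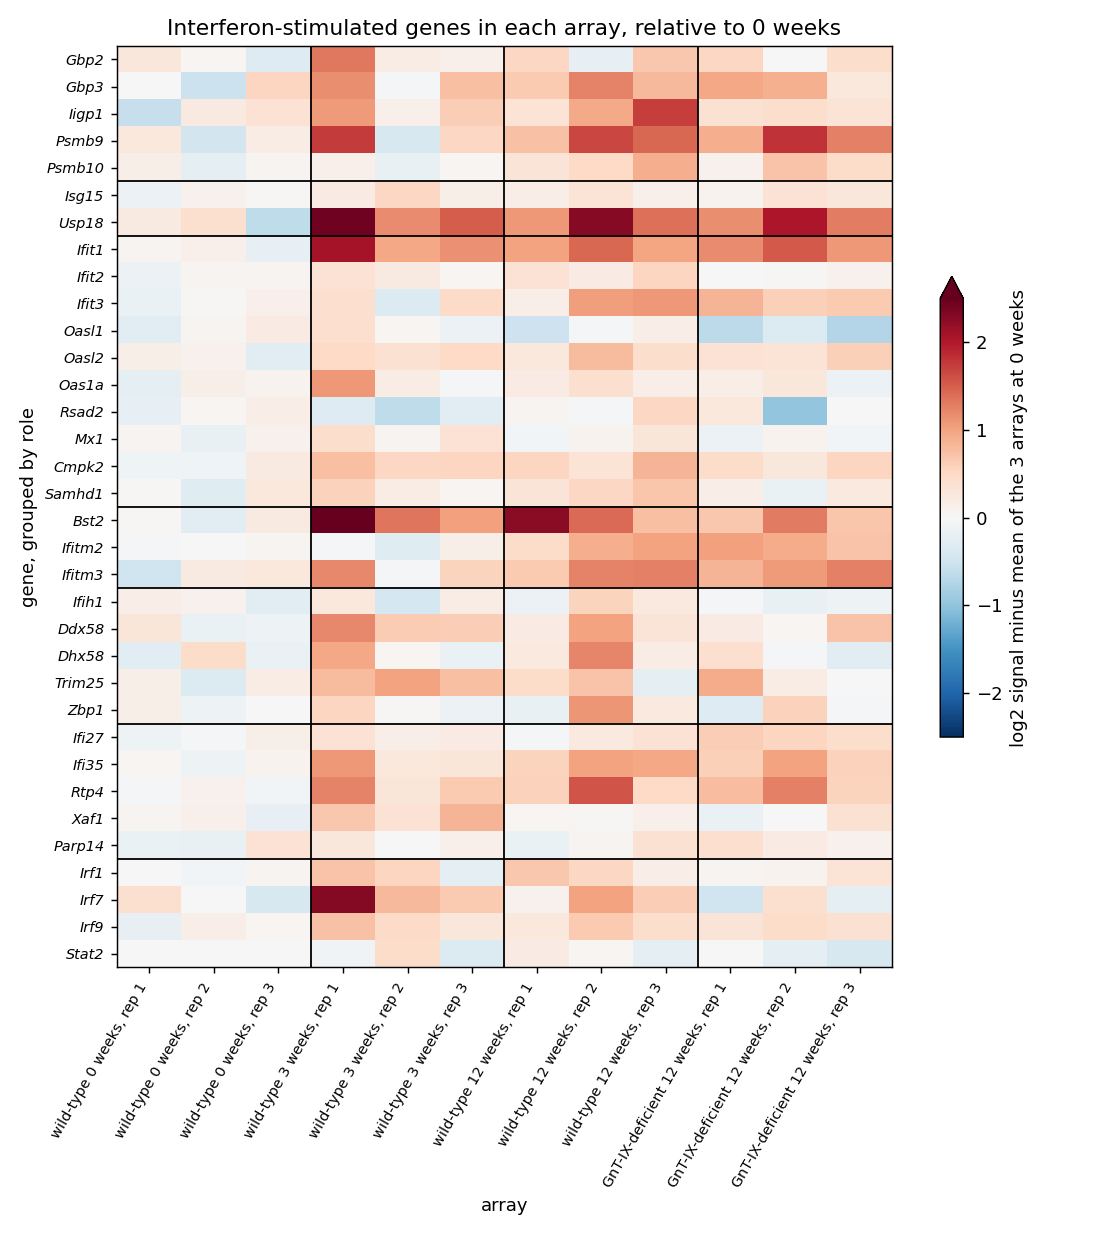
Log2 signal of the 34 interferon-stimulated genes (rows, grouped by role and separated by lines) in each of the 12 arrays (columns), minus the gene's mean at 0 weeks. Replicate 1 at 3 weeks is the reddest column, Usp18, Ifit1 and Bst2 are above 0 in all 9 cuprizone arrays, and Bst2 in that column lies beyond the top of the colour scale.

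None of the 4 transcription factors passed in any comparison. Irf7, the amplifier of type I interferon production, was at 4.07, 3.67 and 3.26 (log2 signal) at 0 weeks, 5.96, 4.47 and 4.32 at 3 weeks, 3.77, 4.67 and 4.29 at 12 weeks, and 3.16, 4.07 and 3.45 in GnT-IX-deficient arrays. Its values at 3 weeks all lay above those at 0 weeks, with replicate 1 well above the others, but the difference of 1.25 (SE 0.38) missed the threshold (adjusted p = 0.0932). Irf9, the DNA-binding part of the complex that holds STAT2, was at 5.84, 6.21 and 6.09 at 0 weeks, 6.77, 6.53 and 6.33 at 3 weeks, 6.32, 6.71 and 6.49 at 12 weeks, and 6.37, 6.50 and 6.43 in GnT-IX-deficient arrays. All 9 cuprizone values lay above the 3 untreated ones, by small amounts that did not pass (adjusted p = 0.155, 0.212 and 0.213 against 0 weeks). The share of all genes with this order of 9 and 3 arrays was not counted, here or for the genes below. The order thus cannot be set against a background, and the 3 comparisons share the same untreated arrays.

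Stat2, the partner of IRF9, was flat over the diet. It was at 6.76, 6.75 and 6.75 at 0 weeks, 6.67, 7.21 and 6.41 at 3 weeks, 6.96, 6.81 and 6.52 at 12 weeks, and 6.77, 6.52 and 6.36 in GnT-IX-deficient arrays. The 0-week values sat inside the range of every other group. Irf1, a factor strongly induced by type II interferon, had a mean of 5.87 ± 0.07 at 0 weeks and of 6.33 ± 0.26 at 12 weeks (SD, n = 3 each), a difference of 0.46 (SE 0.22) that did not pass.

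Of the genes of the ISG15 system, Usp18 passed and Isg15 did not. Usp18 was at 4.23, 4.41 and 3.36 at 0 weeks, 6.44, 5.18 and 5.52 at 3 weeks, 5.08, 6.27 and 5.37 at 12 weeks, and 5.17, 6.02 and 5.28 in GnT-IX-deficient arrays. Every cuprizone array lay above every untreated array, and replicate 3 at 0 weeks was the lowest. The differences against 0 weeks were 1.71 (SE 0.37, adjusted p = 0.0207) at 3 weeks, 1.57 (SE 0.37, adjusted p = 0.0351) at 12 weeks and 1.49 (SE 0.37, adjusted p = 0.0379) in GnT-IX-deficient arrays. Dropping replicate 1 or 3 at 0 weeks, or replicate 1 at 3 weeks, took the 3-week difference out of the called genes (adjusted p = 0.0590, 0.0828 and 0.0905), as did the endothelial covariate (0.0807). The 12-week call ended when replicate 1, 2 or 3 at 0 weeks was dropped (0.0930, 0.0701 and 0.112), or when wild-type replicate 2 or 3 at 12 weeks was (0.197 and 0.0726). The call in GnT-IX-deficient arrays ended on dropping any untreated replicate (0.103, 0.0720 and 0.0968 for 1, 2 and 3) and on dropping deficient replicate 2 or 3 (0.147 and 0.0760).

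Isg15, the ubiquitin-like protein that Usp18 removes, was at 4.34, 4.59 and 4.51 at 0 weeks, 4.69, 4.99 and 4.62 at 3 weeks, 4.64, 4.82 and 4.60 at 12 weeks, and 4.57, 4.85 and 4.76 in GnT-IX-deficient arrays. Its differences against 0 weeks, 0.29, 0.21 and 0.25 (SE 0.16 each), did not pass, and all 12 values lay below the array medians. Isg15 is a common marker of the interferon response, and here it ranged from 4.34 to 4.99 over the 12 arrays.

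**Figure D2:**
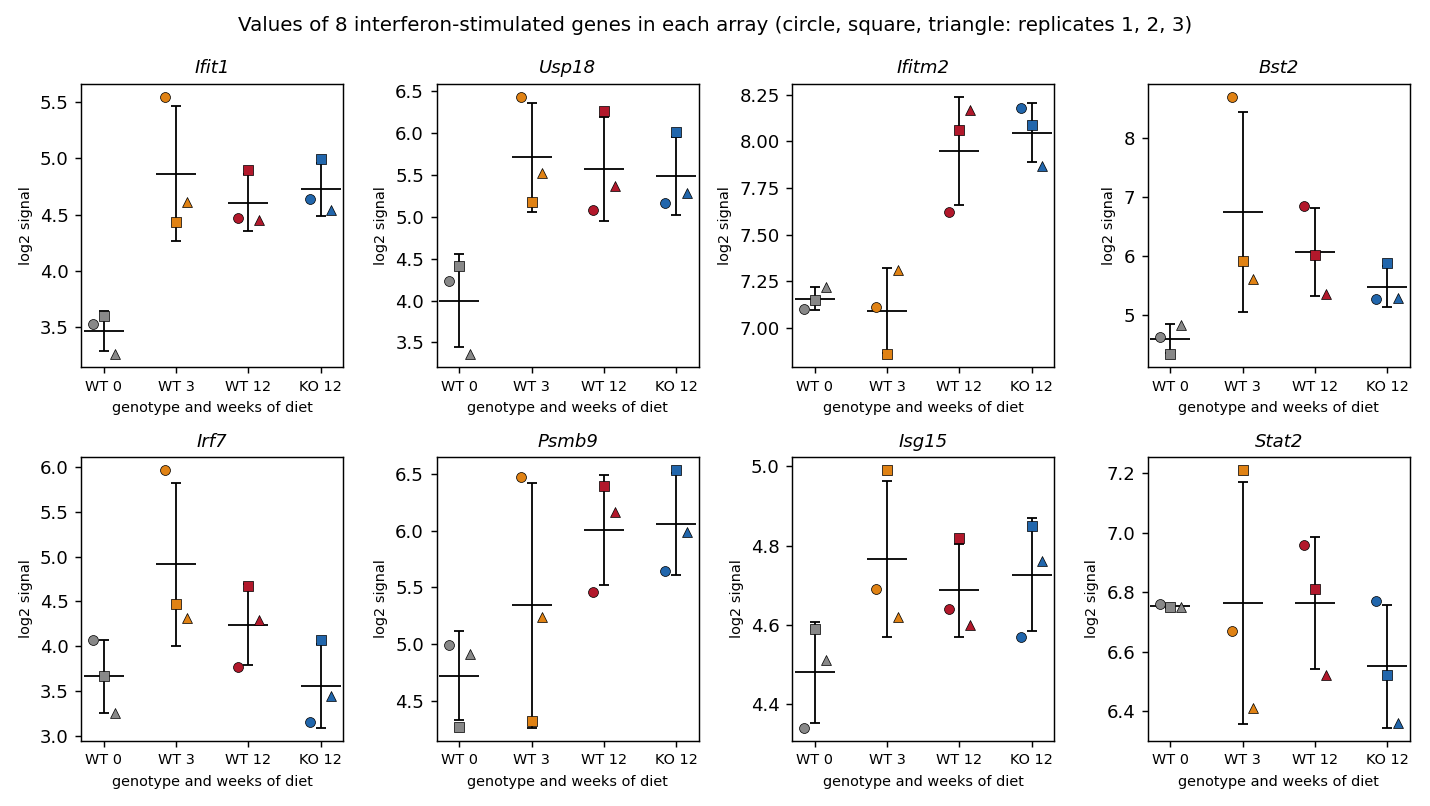
Log2 signal of 8 of the genes in each array, by genotype and weeks of diet (WT is wild-type and KO is GnT-IX-deficient). Circles, squares and triangles are replicates 1, 2 and 3, with horizontal lines for group means and bars for the SD. Ifit1 and Usp18 are higher in all 9 cuprizone arrays than at 0 weeks, Ifitm2 is higher in the 6 arrays at 12 weeks while its 3-week values overlap those at 0 weeks, and Stat2 overlaps throughout.

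The antiviral effectors were uneven. Ifit1 was at 3.53, 3.60 and 3.26 at 0 weeks, 5.55, 4.43 and 4.61 at 3 weeks, 4.47, 4.9 and 4.45 at 12 weeks, and 4.64, 4.99 and 4.54 in GnT-IX-deficient arrays. All 9 cuprizone values lay above the highest untreated value, and the untreated values lay below the lower quartile of their arrays, so the fold is uncertain. The differences against 0 weeks were 1.4 (SE 0.25, adjusted p = 0.00817) at 3 weeks, 1.14 (SE 0.25, adjusted p = 0.0271) at 12 weeks and 1.26 (SE 0.25, adjusted p = 0.0162) in GnT-IX-deficient arrays. At 3 weeks the call was kept without any 1 array of either group. The 12-week call ended on dropping any untreated replicate (0.0926, 0.0802 and 0.0785 for 1, 2 and 3) or wild-type replicate 2 or 3 at 12 weeks (0.154 and 0.0553). The call in GnT-IX-deficient arrays ended on dropping untreated replicate 1 or 2 (0.0643 and 0.0569) or deficient replicate 2 (0.0769).

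Ifit3, a partner of Ifit1 in the same protein family, was at 4.47, 4.66 and 4.76 at 0 weeks, 5.05, 4.28 and 5.10 at 3 weeks, 4.80, 5.67 and 5.72 at 12 weeks, and 5.48, 5.23 and 5.28 in GnT-IX-deficient arrays. It overlapped at 3 weeks and lay apart at 12 weeks by 0.77 (SE 0.25), which did not pass (adjusted p = 0.145). Ifit3b, a close copy whose transcripts the same probes may read, differed by 0.77 (adjusted p = 0.190) at 12 weeks, so the Ifit3 value is uncertain. Ifit2 averaged 3.30 ± 0.12 (SD, n = 3) at 0 weeks and stayed between 3.16 and 3.85 in all 12 arrays.

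Oasl2, of the oligoadenylate synthetase family that senses double-stranded RNA, was at 4.80, 4.77 and 4.39 at 0 weeks, 5.16, 5.03 and 5.15 at 3 weeks, 4.91, 5.44 and 5.10 at 12 weeks, and 5.01, 5.0 and 5.24 in GnT-IX-deficient arrays. Each of the 9 cuprizone values was above the untreated ones, but the differences of 0.46, 0.50 and 0.43 (SE 0.18 each) did not pass. Oasl1 and Oas1a had differences of -0.58 to 0.41 in the same comparisons, none past the threshold, and the probes of Oas1a may also read near-identical family members.

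Rsad2, which encodes the antiviral enzyme viperin, had lower values at 3 weeks. It was at 3.51, 3.78 and 3.88 at 0 weeks, 3.40, 3.08 and 3.44 at 3 weeks, 3.80, 3.68 and 4.24 at 12 weeks, and 3.99, 2.73 and 3.74 in GnT-IX-deficient arrays. These are dim values near the lower quartile, and the difference of -0.42 (SE 0.27) at 3 weeks did not pass (adjusted p = 0.498). Cmpk2, a mitochondrial nucleotide kinase, had a mean of 5.92 ± 0.20 at 0 weeks and of 6.52 ± 0.12 at 3 weeks (SD, n = 3 each), with all 9 cuprizone values above the untreated ones and adjusted p of 0.0832, 0.112 and 0.179 against 0 weeks. Mx1, a dynamin-like GTPase that traps viruses, stayed between 2.25 and 2.88, and Samhd1, which depletes nucleotides, was 0.51 (SE 0.20) higher at 12 weeks without passing.

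Of the 3 membrane-associated antiviral genes, Ifitm2 passed at 12 weeks and the other 2 did not pass. Bst2, or tetherin, which holds budding viruses on the cell surface, was at 4.62, 4.33 and 4.82 at 0 weeks, 8.71, 5.92 and 5.61 at 3 weeks, 6.85, 6.01 and 5.35 at 12 weeks, and 5.27, 5.88 and 5.28 in GnT-IX-deficient arrays. Every cuprizone array lay above every untreated array, and replicate 1 at 3 weeks was far above the rest of its group. With an SD of 1.71 over the 3-week arrays, the difference of 2.16 (SE 0.58) missed the threshold (adjusted p = 0.0590). Differences of 1.48 (adjusted p = 0.234) at 12 weeks and 0.89 (adjusted p = 0.408) in GnT-IX-deficient arrays did not pass either.

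Ifitm2 was at 7.10, 7.15 and 7.22 at 0 weeks, 7.11, 6.86 and 7.31 at 3 weeks, 7.62, 8.06 and 8.17 at 12 weeks, and 8.18, 8.09 and 7.87 in GnT-IX-deficient arrays. Its 3-week values overlapped the untreated ones, while all 6 arrays at 12 weeks lay above all 6 earlier arrays. The difference at 12 weeks was 0.79 (SE 0.18, adjusted p = 0.0332) in wild-type and 0.89 (SE 0.18, adjusted p = 0.0180) in GnT-IX-deficient arrays, and the direct difference between 12 and 3 weeks, 0.86 (SE 0.18), had adjusted p = 0.0863. The wild-type call ended on dropping any untreated replicate (0.131, 0.121 and 0.0588 for 1, 2 and 3) or wild-type replicate 2 or 3 at 12 weeks (0.160 and 0.122). The call in GnT-IX-deficient arrays ended on dropping untreated replicate 1 or 2 (0.0827 and 0.0702) or deficient replicate 2 (0.0708). Centring each array on its median gave adjusted p = 0.0517 in wild-type arrays.

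Ifitm3, the related gene that restricts virus entry in endosomes, was at 7.53, 8.26 and 8.29 at 0 weeks, 9.23, 7.99 and 8.58 at 3 weeks, 8.69, 9.26 and 9.29 at 12 weeks, and 8.88, 9.09 and 9.29 in GnT-IX-deficient arrays. The 12-week values lay above the untreated ones by 1.05 and 1.06 (SE 0.29 each), which did not pass (adjusted p = 0.0693 and 0.0510). Ifitm1, a gene of this family outside the list, was at 7.13 ± 0.29, 6.92 ± 0.07, 7.90 ± 0.43 and 7.87 ± 0.28 (SD, n = 3) at 0, 3 and 12 weeks and in GnT-IX-deficient arrays, without passing.

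The sensors of viral nucleic acid did not pass in any comparison. Ifih1, the RNA sensor MDA5, was at 5.66, 5.59 and 5.22 at 0 weeks, 5.76, 5.06 and 5.68 at 3 weeks, 5.35, 6.05 and 5.73 at 12 weeks, and 5.47, 5.31 and 5.36 in GnT-IX-deficient arrays, with overlap between all groups. Ddx58, which encodes RIG-I, and Trim25, the ubiquitin ligase that activates it, had 3-week values above all untreated ones, with differences of 0.82 (SE 0.25) and 0.85 (SE 0.27) that did not pass (adjusted p = 0.0976 and 0.105). Dhx58, or LGP2, and Zbp1, a sensor of Z-form nucleic acid, overlapped between all groups.

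None of the 5 GTPase and immunoproteasome genes of the list passed in any comparison. Psmb9, a catalytic subunit of the immunoproteasome, was at 4.99, 4.27 and 4.91 at 0 weeks, 6.47, 4.32 and 5.24 at 3 weeks, 5.46, 6.39 and 6.16 at 12 weeks, and 5.64, 6.53 and 5.99 in GnT-IX-deficient arrays. The 12-week arrays of both genotypes lay above the untreated ones, by 1.28 and 1.33 (SE 0.42 each), and did not pass (adjusted p = 0.137 and 0.0808). Gbp2, a guanylate-binding GTPase, was at 4.77, 4.53 and 4.17 at 0 weeks, 5.81, 4.68 and 4.61 at 3 weeks, 5.01, 4.29 and 5.16 at 12 weeks, and 5.0, 4.50 and 4.93 in GnT-IX-deficient arrays, with overlap in every comparison. At 12 weeks Iigp1, Gbp3 and Psmb10 were 1.01, 0.90 and 0.58 higher than at 0 weeks, none past the threshold.

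Of the remaining genes, Rtp4, a chaperone of receptors, and Ifi35 lay above the untreated values in all 9 cuprizone arrays. Rtp4 was higher by 0.74, 0.88 and 0.87 and Ifi35 by 0.55, 0.85 and 0.72 at 3 weeks, at 12 weeks and in GnT-IX-deficient arrays, with adjusted p of 0.0618 to 0.233. Xaf1, which promotes cell death, had a mean of 6.70 ± 0.25 at 3 weeks, against 6.07 ± 0.18 at 0 weeks, 6.15 ± 0.05 at 12 weeks and 6.15 ± 0.28 in GnT-IX-deficient arrays (SD, n = 3 each). Its 3-week values lay above those of both other wild-type groups without passing (adjusted p = 0.0857 against 0 weeks). Parp14 stayed between 3.86 and 4.48.

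**Figure D3:**
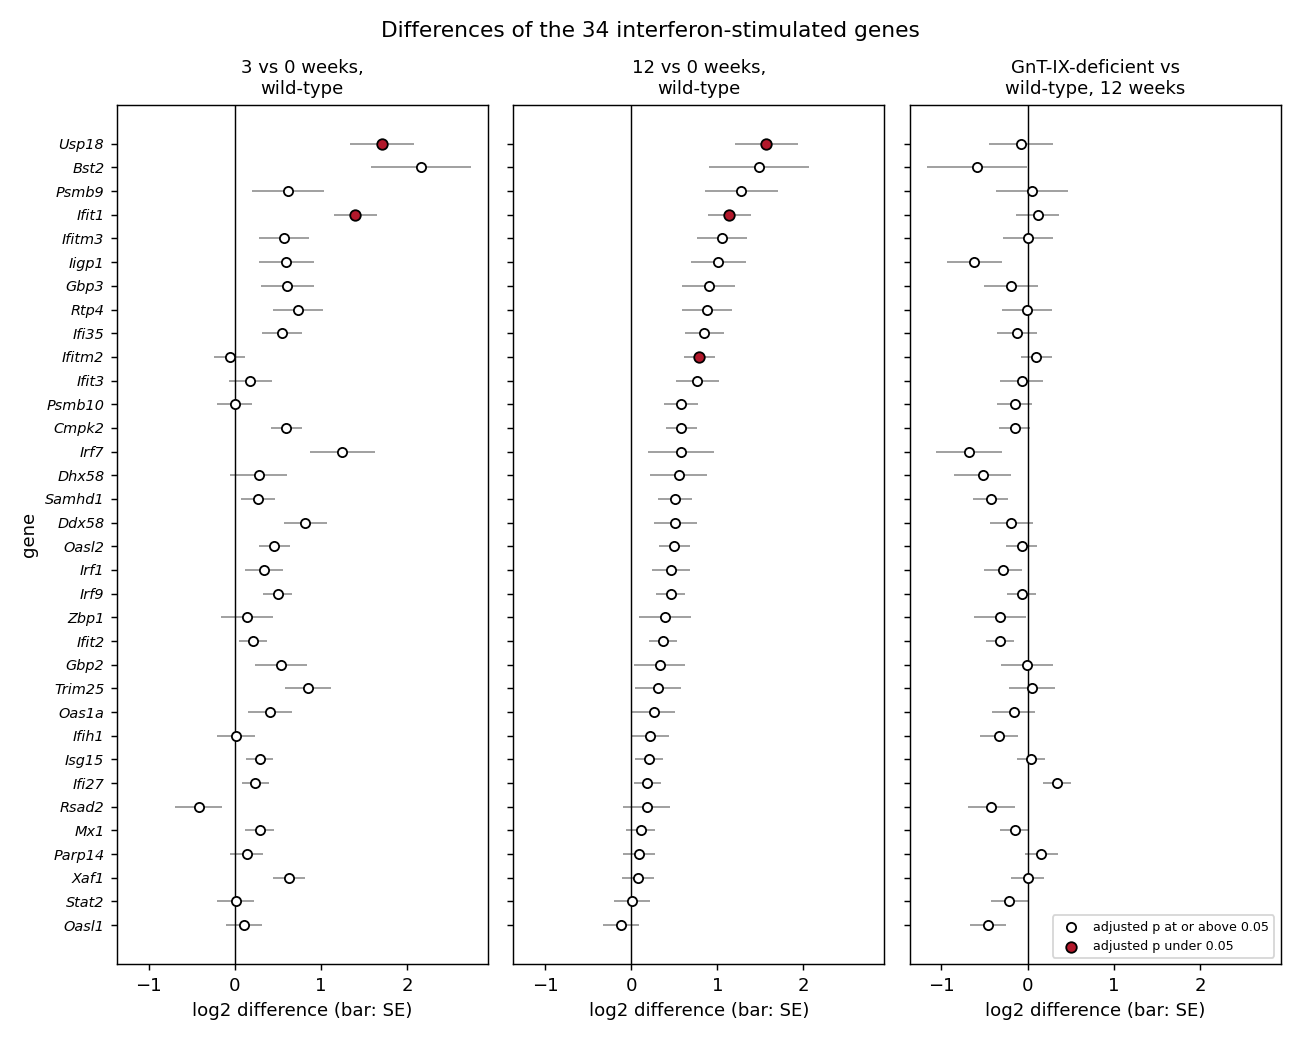
Log2 differences of the 34 genes (points) with SE (bars) for 3 against 0 weeks, 12 against 0 weeks and GnT-IX-deficient against wild-type at 12 weeks, ordered by the 12-week difference. Red points had adjusted p under 0.05 in limma. Nearly all points of the first and second panels lie right of 0, and those of the third scatter around 0 with 9 of 34 above it.

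The array that was highest for the list in each cuprizone group was also highest for the microglial markers. In the 3-week group replicate 1, with a microglial marker mean of 8.82 against 6.97 and 6.52 in replicates 2 and 3, was the highest array for 27 of the 34 genes (79.4%), against 30.8% of all genes. The mean of the 34 genes was 5.76 in that array and 5.11 and 5.20 in the others, against 4.84, 4.84 and 4.89 at 0 weeks. Without that array the list median at 3 weeks fell from 0.44 to 0.20 with 27 of 34 genes above 0, Ifit1 kept its call (1.06, adjusted p = 0.0223) and Usp18 lost it.

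At 12 weeks the array with the highest microglial mean, replicate 2 at 8.98, also had the highest mean of the 34 genes, 5.59 against 5.22 and 5.44. In GnT-IX-deficient arrays replicate 2, at 8.27, had 5.31 against 5.23 and 5.20. At 0 weeks the order differed, since replicate 3 had the highest mean of the 34 genes and replicate 1 the highest microglial mean. The median SD of the list was 0.37 at 3 weeks and 0.30 at 12 weeks, against 0.22 and 0.21 over all genes. Endothelial markers averaged 5.41 to 5.67 at 0 weeks and 5.42 to 7.06 in cuprizone arrays, and were highest in replicate 1 of each of the 4 groups. The part of microglial and endothelial signal in the differences cannot be told apart from the diet in this design.

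**Figure D4:**
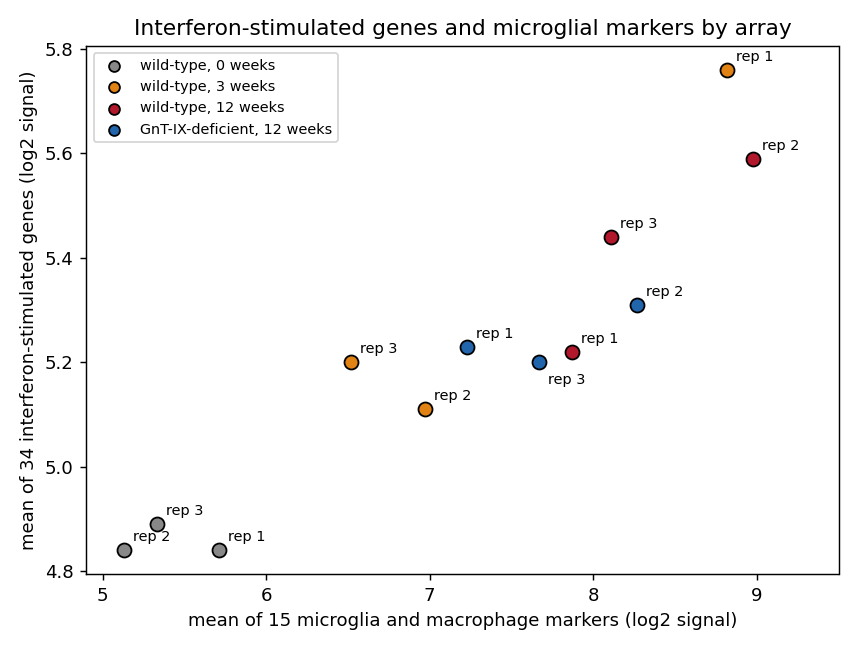
Mean log2 signal of the 34 interferon-stimulated genes (vertical) against the mean of 15 microglia and macrophage markers (horizontal), 1 point per array, coloured by group and labelled with its replicate number. The 3 untreated arrays sit lowest on both axes, and replicate 1 at 3 weeks and replicate 2 at 12 weeks in wild-type mice sit highest.

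When each array's mean over the microglial markers entered the fit as a covariate, none of the 34 genes passed in any comparison, and 5, 0, 0, 5 and 3 of all genes did for the 5 comparisons in the order given above. The list median went from 0.44 to 0.02 at 3 weeks, from 0.50 to -0.03 at 12 weeks, and from 0.34 to -0.03 in GnT-IX-deficient against untreated wild-type arrays, while the SE grew 1.52, 1.93 and 1.64 times. The marker list shares no gene with the 34. At 12 weeks in wild-type mice Ifit1 was then at -0.11 (SE 0.35) and Usp18 at -0.18 (SE 0.53), while Ifitm2 was at 0.76 (SE 0.38), near its value without the covariate. Irf7 was then at -1.64 (SE 0.37, adjusted p = 0.826) at 12 weeks and -0.30 (SE 0.29) at 3 weeks. At 3 weeks Trim25 (0.84, SE 0.42), Xaf1 (0.62, SE 0.30) and Cmpk2 (0.61, SE 0.29) kept nearly their full differences, and Ifit1 was at 0.53 (SE 0.28). Since the marker mean also separates the cuprizone from the untreated arrays, diet and microglial signal cannot be told apart by this fit.

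No interferon gene was called. Of 19 measured interferon genes none passed in any comparison, with list means of 4.14 to 4.33 per array and medians of -0.19, -0.12 and -0.08 for the 3 comparisons with 0 weeks. Ifnb1, the interferon beta gene, was at 3.98 ± 0.11, 3.62 ± 0.17, 3.68 ± 0.24 and 3.44 ± 0.36 (SD, n = 3) at 0, 3 and 12 weeks and in GnT-IX-deficient arrays, near the lower quartile, and Ifng, the type II interferon gene, at 2.86 ± 0.11, 2.92 ± 0.22, 2.95 ± 0.22 and 3.28 ± 0.25 (SD, n = 3), below it. The counts of interferon genes at an unadjusted p under 0.05 (limma) against 0 weeks were 0 higher and 1 lower at 3 weeks, 2 and 1 at 12 weeks, and 2 and 3 in GnT-IX-deficient arrays. Over all genes the shares were 8.81% higher and 7.30% lower at 3 weeks, 8.21% and 6.85% at 12 weeks, and 10.8% each way in GnT-IX-deficient arrays.

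Of 11 measured, only Il10rb, the receptor subunit shared by interleukin 10 and type III interferons, passed, at 12 weeks, with 1.36 (SE 0.30, adjusted p = 0.0271). Il10rb was at 6.81 ± 0.15, 7.23 ± 0.63, 8.17 ± 0.57 and 7.75 ± 0.31 (SD, n = 3) in the 4 groups in the same order. Ifnar1 and Ifnar2, the type I receptor subunits, were at 7.24 ± 0.19 and 8.89 ± 0.23 (SD, n = 3) at 0 weeks, with differences of -0.19 to 0.52 against it in the later groups, none past the threshold.

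Of 15 upstream sensors and adaptors, 1 rose and 1 fell at 3 weeks, 4 rose at 12 weeks, and 1 rose and 2 fell in GnT-IX-deficient against untreated wild-type arrays. Over all genes 1.61% were called higher and 1.63% lower at 3 weeks, 2.11% and 0.523% at 12 weeks, and 2.41% and 1.70% in GnT-IX-deficient arrays. Tlr7, the endosomal receptor for single-stranded RNA, rose by 2.20 (adjusted p = 0.0470), 3.75 (adjusted p = 0.00307) and 2.81 (adjusted p = 0.0160) in the 3 comparisons. Tlr3, the receptor for double-stranded RNA, was at 9.89, 9.83 and 9.83 at 0 weeks and 8.65, 8.07 and 8.57 at 3 weeks, and fell by 1.42 on the log2 scale (adjusted p = 0.00252). In GnT-IX-deficient arrays Tlr3 was below 0 weeks by 0.84 (adjusted p = 0.0378), and Mavs, the adaptor of the RNA sensors, by 0.86 (adjusted p = 0.0236). In wild-type arrays at 12 weeks Tlr3 was at -0.66 (adjusted p = 0.125) and Mavs at -0.44 (adjusted p = 0.291) against 0 weeks. No gene of this list was called between genotypes. At 12 weeks Tlr9 (1.99), Unc93b1 (1.62), which carries these receptors to endosomes, and Irf8 (0.94), a factor of myeloid cells, rose with Tlr7. Tlr7 and the microglial marker Tyrobp were both highest in replicate 1 at 3 weeks and in replicate 2 at 12 weeks in wild-type arrays, and the part of microglial signal in these rises was not tested.

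Of 44 other interferon-inducible genes outside the list, 1 rose at 3 weeks, 6 rose at 12 weeks and 2 rose in GnT-IX-deficient arrays, and none fell. Over all genes 1.61%, 2.11% and 2.41% were called higher in these comparisons, and 1.63%, 0.523% and 1.70% lower. The counts at 3 weeks and in GnT-IX-deficient arrays, and the absence of falls in each comparison, were thus near the background. B2m, the light chain of MHC class I, rose in each, by 1.43 (adjusted p = 0.0448), 2.12 (adjusted p = 0.00771) and 1.66 (adjusted p = 0.0228). The immunoproteasome gene Psmb8 rose by 1.60 at 12 weeks and 1.45 in GnT-IX-deficient arrays, and Trim30a (2.45), Sp100 (1.53), Lgals9 (1.39) and Slfn5 (1.28) at 12 weeks. The medians of these 44 genes, 0.29, 0.45 and 0.29, were below or near those of the 34, 0.44, 0.50 and 0.34. Neither list had a called gene between genotypes.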

How the data were processed

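Deposited values were log2 signals. Per the submitters' processing notes, they came from RMA in Affymetrix Expression Console 1.4, which corrects background, equalises array distributions and combines the probes of each transcript cluster. Per the labels' protocols, RNA was extracted with either of a pair of kits, and the labels used here do not tie a kit to a sample, so kit and group cannot be told apart. Of 22206 clusters, 19572 had 1 gene symbol and were matched by Entrez identifier to RefSeq names of GRCm38.p6, and 2634 are unnamed here. The cluster with the highest mean was taken for 55 genes with several, leaving 19505 genes, none filtered out. The linear model used lmFit and eBayes of limma 3.58.1 (R 4.3.3), with a mean for each of 4 groups over 12 arrays and 8 residual degrees of freedom. P-values were two-sided and adjusted by Benjamini-Hochberg over all genes, with a threshold of 0.05. SEs are from that fit and SDs are over 3 arrays. The script was tested on simulated data. Values in all arrays are given for called genes and for 13 genes of central roles in the pathway (Ifit1 is in both), and others by range and count. The 34 genes, the lists and the alternatives were chosen with earlier results of these data known. Alternatives changed the normalization, centring, dim-gene filter, cluster choice, variance estimate, array weights, the arrays fitted, the replicate block, marker means as covariates and a minimum difference, and left out each array in turn. The number of arrays limits the precision.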

Additional observations from a re-analysis of the deposited data

How the results depend on the processing

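Counts of the 34 genes called were 2, 3, 0, 0 and 3 for 3 against 0 weeks, 12 against 0 weeks, 12 against 3 weeks, GnT-IX-deficient against wild-type, and GnT-IX-deficient against untreated wild-type. Of all genes 3.24%, 2.64%, 0.0820%, 0.0256% and 4.11% were called in the same order. With array weights the first count became 4 (4.55% of all genes) and the second 5 (4.71%). With only the 6 arrays compared, the second count became 7 (3.53%) and the last 9 (5.01%). With the microglial covariate the first, second and last counts became 0 (0.0256%, 0% and 0.0154% of all genes). With the endothelial covariate these counts became 1, 0 and 0 (1.88%, 0.00513% and 0.0359% of all genes). With a minimum log2 difference of 0.5 all became 0 (0.241%, 0.349% and 0.185% of all genes for the first, second and last). With the choroid plexus covariate the last count became 0 (0.385% of all genes). Leaving out 1 array gave 1 to 3, 0 to 7 and 0 to 3 for the first, second and last, and 0 in the other comparisons. In the first comparison the share of all genes called then ran from 0.984% to 3.30%. The second count was 0 on dropping untreated replicate 1, 2 or 3 (0.738%, 0.538% and 2.13% of all genes called). It was also 0 on dropping wild-type replicate 2 or 3 at 12 weeks (0.395% and 1.42% of all genes). On dropping wild-type replicate 1 at 12 weeks it was 7 (2.58% of all genes). The last count was 0 on dropping untreated replicate 1 or 2 (0.502% and 0.631% of all genes) or deficient replicate 2 (0.800%). At 12 weeks the microglial covariate reversed Ifit1 to -0.11 and Usp18 to -0.18. For these changes the cause was not tested. Over the alternatives adjusted p ranged from 0.00497 to 0.714 for Ifit1 at 3 weeks and from 0.0162 to 0.842 for Usp18, and at 12 weeks from 0.00606 to 0.999 for Ifit1, 0.0174 to 0.999 for Usp18 and 0.0119 to 1 for Ifitm2. In GnT-IX-deficient arrays it ranged from 0.00449 to 0.899 for Ifit1, 0.0161 to 0.984 for Usp18 and 0.0137 to 1 for Ifitm2. With the replicate number as a block (replicate block) the counts were 3, 3, 0, 0 and 3. The shares of all genes were then 2.78%, 2.27%, 0.0769%, 0.0256% and 4.19%. Arrays with the same number share only that number: their deviations from the group means correlated with r of -0.279 to 0.216, and 4 of 12 arrays correlated best with their own number.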
